A study of Mus musculus with 4 samples.

Results

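The mitochondrial ribosomal protein genes are nuclear genes whose products are imported into mitochondria and built, around RNA from the mitochondrial genome, into the ribosome that translates mitochondrial messages. They were taken by name, as all entries beginning with Mrpl or Mrps and a digit, without the 5 entries marked as pseudogenes by "-ps". This gave 78 of the 51912 genes in the table, 49 named for the large subunit (Mrpl) and 29 for the small subunit (Mrps), and GENCODE annotates all 78 as protein coding. Their transcripts were measured by RNA sequencing of subcutaneous white adipose tissue, the fat under the skin, from C57BL/6 mice aged 8 weeks. One group received BML-260, which is known to inhibit the phosphatase DUSP22, and the other its vehicle, dimethyl sulfoxide (DMSO). Each group had 2 libraries, A and B. There were 8 mice, 4 per treatment, and the sources used here do not say how they were pooled or split into 4 libraries. A p-value therefore measures only the spread between these libraries. No member differed between BML-260 and vehicle beyond that spread after adjustment, and most fold changes were small. BML-260 A was the lowest library in 71.8% of members by TMM-scaled values, against 31.3% of tested genes. By library totals it was the lowest in 41% of members, against 21.2% of tested genes.

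The mitochondrial ribosome makes only a handful of proteins, all of them membrane subunits of the respiratory chain and the ATP synthase. Its large subunit joins amino acids at the peptidyl transferase centre, and its small subunit holds the message and reads the codons. Brown and beige fat are rich in mitochondria, and assembly of their respiratory chain needs subunits from both the nuclear and the mitochondrial genome. Promoters of genes for the mitochondrial translation machinery are known for sites of the factors NRF1, GABPA (an ETS factor also called NRF2) and YY1.

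To show what the members share in sequence, their promoters were searched for these motifs. Windows from 250 bases before to 50 bases after the start were taken from RefSeq on GRCm38.p6, which held 75 promoters for 69 of the 78 genes. A few are shown from 5′ to 3′ on the strand of the gene. The capitals mark matches, on either strand, to the NRF1 motif (10 bases), the ETS and GABPA motif CCGGAAG or the YY1 motif AAGATGGC. Mrps26 (chr2:130563507-130563806, plus strand) holds 2 overlapping NRF1 matches beside an ETS match, Mrps12 (chr7:28741772-28742071, minus strand) a YY1 and an ETS match, and Mrpl52 (chr14:54426659-54426958, plus strand) 2 ETS matches. Mrps30 (chr13:118387203-118387502, minus strand), the member with the smallest p below, holds none of these letters in the window.
Mrps26: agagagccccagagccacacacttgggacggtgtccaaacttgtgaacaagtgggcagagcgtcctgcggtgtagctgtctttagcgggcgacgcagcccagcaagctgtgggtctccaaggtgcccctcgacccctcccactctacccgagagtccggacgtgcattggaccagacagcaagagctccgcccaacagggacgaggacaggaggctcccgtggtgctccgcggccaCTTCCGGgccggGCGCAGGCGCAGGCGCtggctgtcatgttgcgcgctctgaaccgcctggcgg
Mrps12: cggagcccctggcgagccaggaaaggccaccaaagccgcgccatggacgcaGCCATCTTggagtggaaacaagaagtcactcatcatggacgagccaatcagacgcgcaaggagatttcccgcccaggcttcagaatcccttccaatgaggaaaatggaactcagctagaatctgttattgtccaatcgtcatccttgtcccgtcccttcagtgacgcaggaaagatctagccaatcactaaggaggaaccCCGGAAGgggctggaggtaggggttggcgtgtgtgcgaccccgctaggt
Mrpl52: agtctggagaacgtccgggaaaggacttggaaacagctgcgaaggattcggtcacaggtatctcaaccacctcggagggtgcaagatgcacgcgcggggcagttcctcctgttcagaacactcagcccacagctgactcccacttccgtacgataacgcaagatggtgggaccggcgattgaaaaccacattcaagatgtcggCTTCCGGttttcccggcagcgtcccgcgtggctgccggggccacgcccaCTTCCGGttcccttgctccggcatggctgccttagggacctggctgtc
Mrps30: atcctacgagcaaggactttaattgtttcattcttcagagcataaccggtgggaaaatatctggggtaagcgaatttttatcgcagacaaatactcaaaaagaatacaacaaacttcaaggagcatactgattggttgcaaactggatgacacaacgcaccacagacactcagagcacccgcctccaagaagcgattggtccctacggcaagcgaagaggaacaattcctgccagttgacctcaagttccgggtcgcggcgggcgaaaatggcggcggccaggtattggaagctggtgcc

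The ETS and GABPA motif was found in 26 of the 75 member promoters (34.7%), against 15.7% of 14296 promoters of tested genes and 8.86% of all 32851 promoters. The NRF1 motif was in 13 (17.3%), against 8.94% and 4.60%, and the YY1 motif in 12 (16.0%), against 3.99% and 2.75%. In all, 43 of the 75 (57.3%) held at least one of the 3, against 25.5% of the promoters of tested genes. Matches to both NRF1 and ETS were in 4. The motif of estrogen-related receptors, TCAAGGTCA, was in 0 of 75, against 0.273% of promoters of tested genes. The cyclic AMP response element TGACGTCA was in 2 (2.67%, against 2.77%), and the TATA box TATAAA in 5 (6.67%, against 7.65%). The ETS motif was in 15 of 48 large subunit and 11 of 27 small subunit promoters, NRF1 in 10 of 48 and 3 of 27, and YY1 in 6 of 48 and 6 of 27. Promoters of one gene can share sequence, and a match is a run of letters, not a measured binding site.

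**Figure D1:**
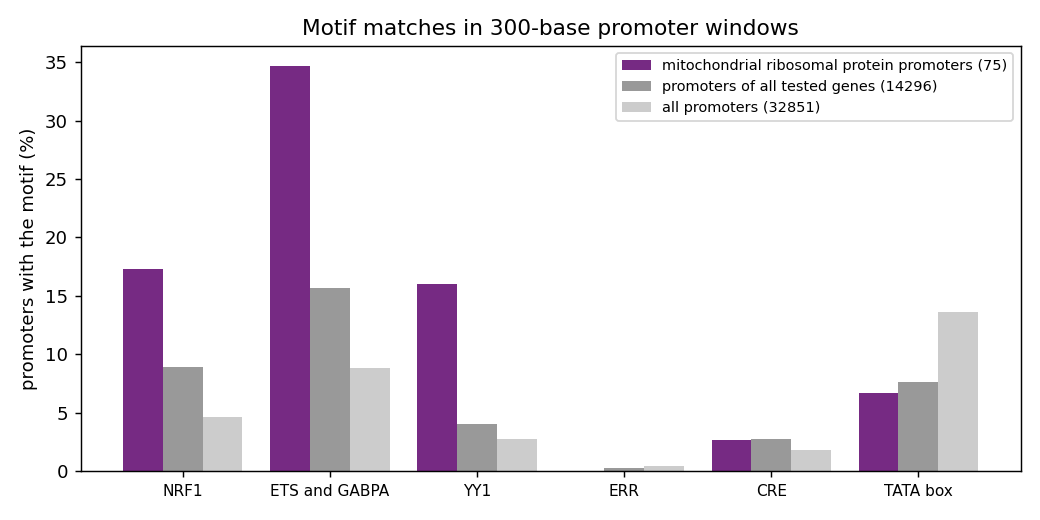
Share of promoter windows (vertical axis, percent) that hold each motif, for the member promoters, the promoters of all tested genes and all promoters. The purple bars stand above both grey ones for NRF1, ETS and GABPA, and YY1, but not for the cyclic AMP element (CRE), the TATA box or the estrogen-related receptor motif (ERR).

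Total expected counts were 19999836 to 23726781 per library. Markers of mature adipocytes, the main cells of this tissue, were present, with 11 of 11 listed genes tested. Their summed level, in TMM-scaled CPM (each library's counts set to a common depth), was 27209 and 39635 in the BML-260 libraries A and B, against 45080 and 45407 in the vehicle libraries A and B. Skeletal muscle markers (19 genes) took 3.92% and 5.27% of counts in the BML-260 libraries, against 0.0520% and 1.32% in the vehicle libraries. Lymphocyte markers were highest in BML-260 A: the 11 T and NK cell genes summed to 148 and 18.2 CPM in the BML-260 libraries, against 10.6 and 29.7 CPM in the vehicle libraries. In bulk tissue, fewer cells of a type and less RNA per cell cannot be told apart. Across 15643 tested genes, the edgeR quasi-likelihood test called 1 at an adjusted p under 0.05 (0.00639%), namely Ucp1, the heat-producing proton carrier of brown and beige fat.

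All 78 members passed the filter on low counts, with 77.0 to 2424 expected counts per library. Levels of different genes were compared per length, as the FPKM values the authors deposited. The median over genes of the mean FPKM over 4 libraries was 44.6 for the large and 43.5 for the small subunit, so the sets lay at a like level. Within each set the levels spread widely, from 3.78 to 204 FPKM for the large and from 16.7 to 221 FPKM for the small subunit. At the top stood Mrps21, a small protein of the small subunit, with 195 and 223 FPKM in the BML-260 libraries against 245 and 222 in the vehicle libraries. Mrpl52, a protein of the large subunit that bacterial ribosomes lack, followed with 171 and 177 FPKM in BML-260 against 222 and 244 in vehicle. Then came Mrpl42, Mrpl33 and Mrpl30, with means of 168, 153 and 153 FPKM over the 4 libraries, and Mrps15 with 118. Mrpl30 and Mrpl33, neighbours in this order, did not differ beyond their spread. Mrpl30 ranged from 134 to 172 FPKM over the libraries and Mrpl33 from 147 to 166.

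At the low end of the large subunit were Mrpl1, whose bacterial relative forms a mobile stalk of the ribosome, and Mrpl19. Mrpl1 had 6.93 and 9.62 FPKM in BML-260 against 6.86 and 8.70 in vehicle, and Mrpl19 had 3.91 and 3.75 against 3.59 and 3.89. The lowest of the small subunit were Mrps2, with a mean of 16.7 FPKM, and Mrps27, with 16.8. FPKM depends on the length given to a gene, so a long untranslated part of the annotated transcript lowers it. Mrpl23 was low as well, but reads may be shared with its pseudogene: Mrpl23 had 6.12 and 3.51 CPM in BML-260 and 6.79 and 4.32 in vehicle, while Mrpl23-ps1 had 24.4 and 29.2 against 24.1 and 28.6. Summed, they lay at 30.5 and 32.8 CPM in BML-260 against 30.9 and 32.9 CPM in vehicle, and the groups overlapped. The other 4 pseudogene entries were listed at 0 in every library.

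**Figure D2:**
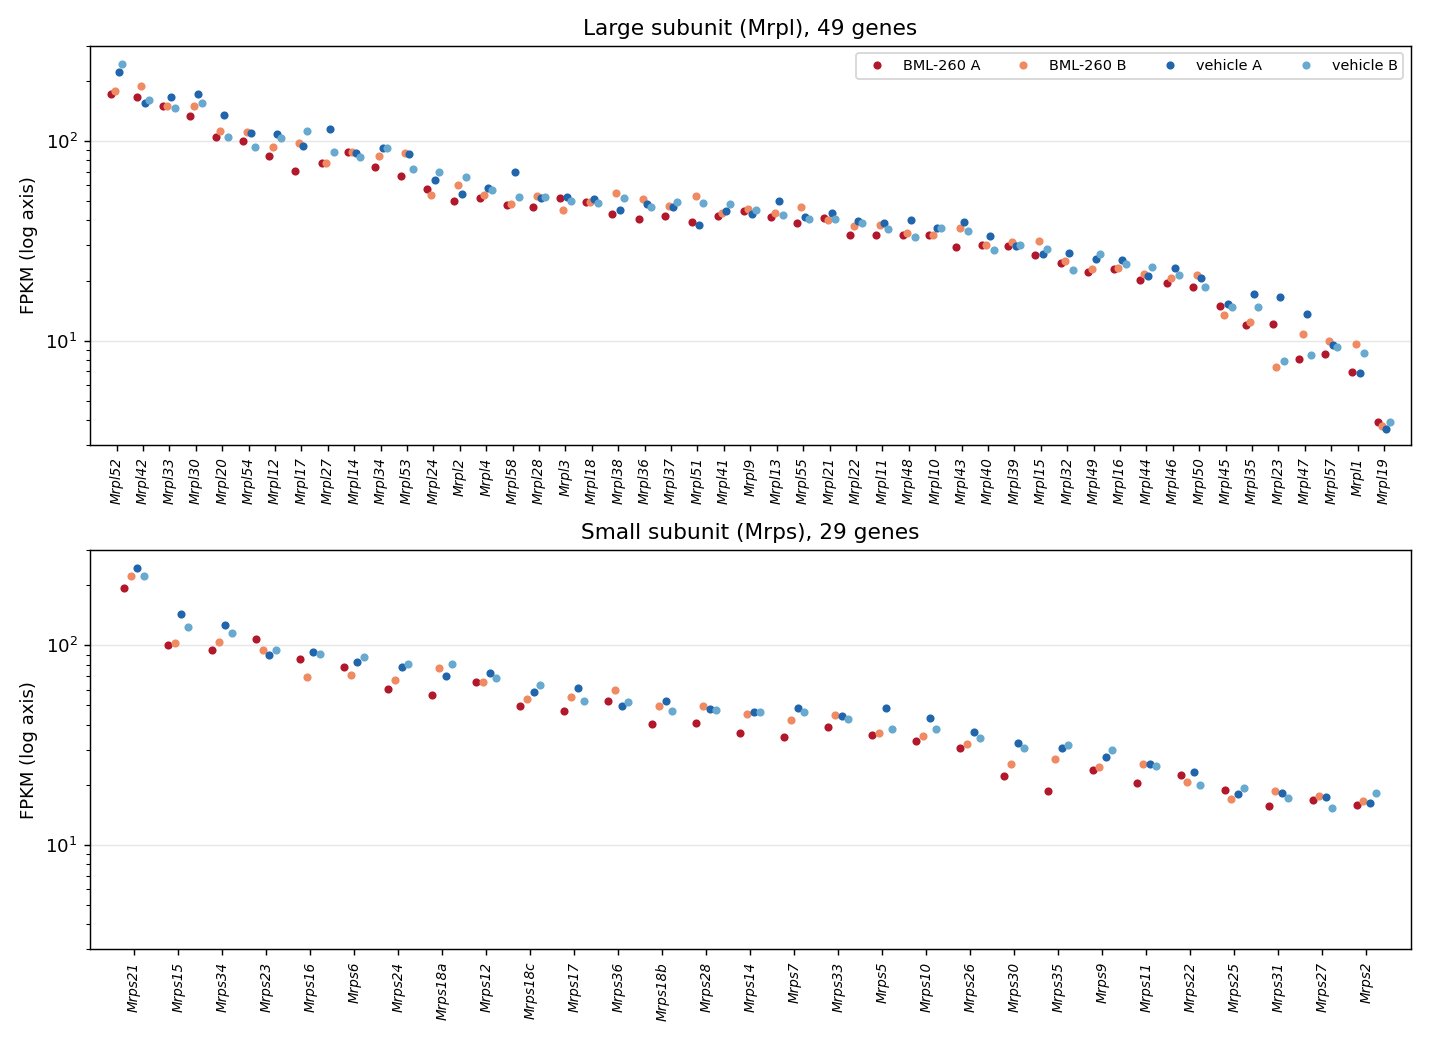
Deposited FPKM (vertical, log axis) of each member in the 4 libraries, ordered by mean, for the large subunit above and the small subunit below. Most members lie between 10 and 200 FPKM and the 4 points of a gene are close together against the spread between genes, with Mrpl23 the most scattered.

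The comparison of BML-260 with vehicle asks whether the compound changed this machinery. None of the 78 members had an adjusted p under 0.05 with edgeR (smallest edgeR adjusted p = 0.428), in DESeq2 (smallest 0.441) or in limma-voom, each adjusted over all 15643 genes. At an unadjusted edgeR p under 0.05 there was 1 member of 78 (1.28%), Mrps30, against 11.1% of all tested genes. That count of members moved with the setting. It was 0 with a term for the library letter, 1 with DESeq2 and with limma-voom, and 2 with RLE factors. It was 3 without the filter on low counts, 4 with limma on FPKM and 5 by library totals. The share of all tested genes under these settings is not given, so the 11.1% does not apply to them. Log2 fold changes ran from -0.38 to 0.22, and 72 of the 78 were within 0.25 of zero, as were 9052 of the 15643 tested genes. Of the members, 57 (73.1%) lay below zero and 21 above, against 47.5% of tested genes below zero. The median was -0.08 over the members and 0.02 over all tested genes. The authors' deposited table likewise holds no member with an adjusted p under 0.05 (smallest 0.511; 0.688% of its genes are under it), and its log2 fold changes for members lie between -0.35 and 0.19. The 95% confidence interval of the fold change, from the standard error of the edgeR fit, lay within 1.5-fold in both directions for 68 members and within 2-fold for 77. The exception at 2-fold was Mrpl23, the least counted member, whose interval was -1.19 to 0.78 on the log2 scale.

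**Figure D3:**
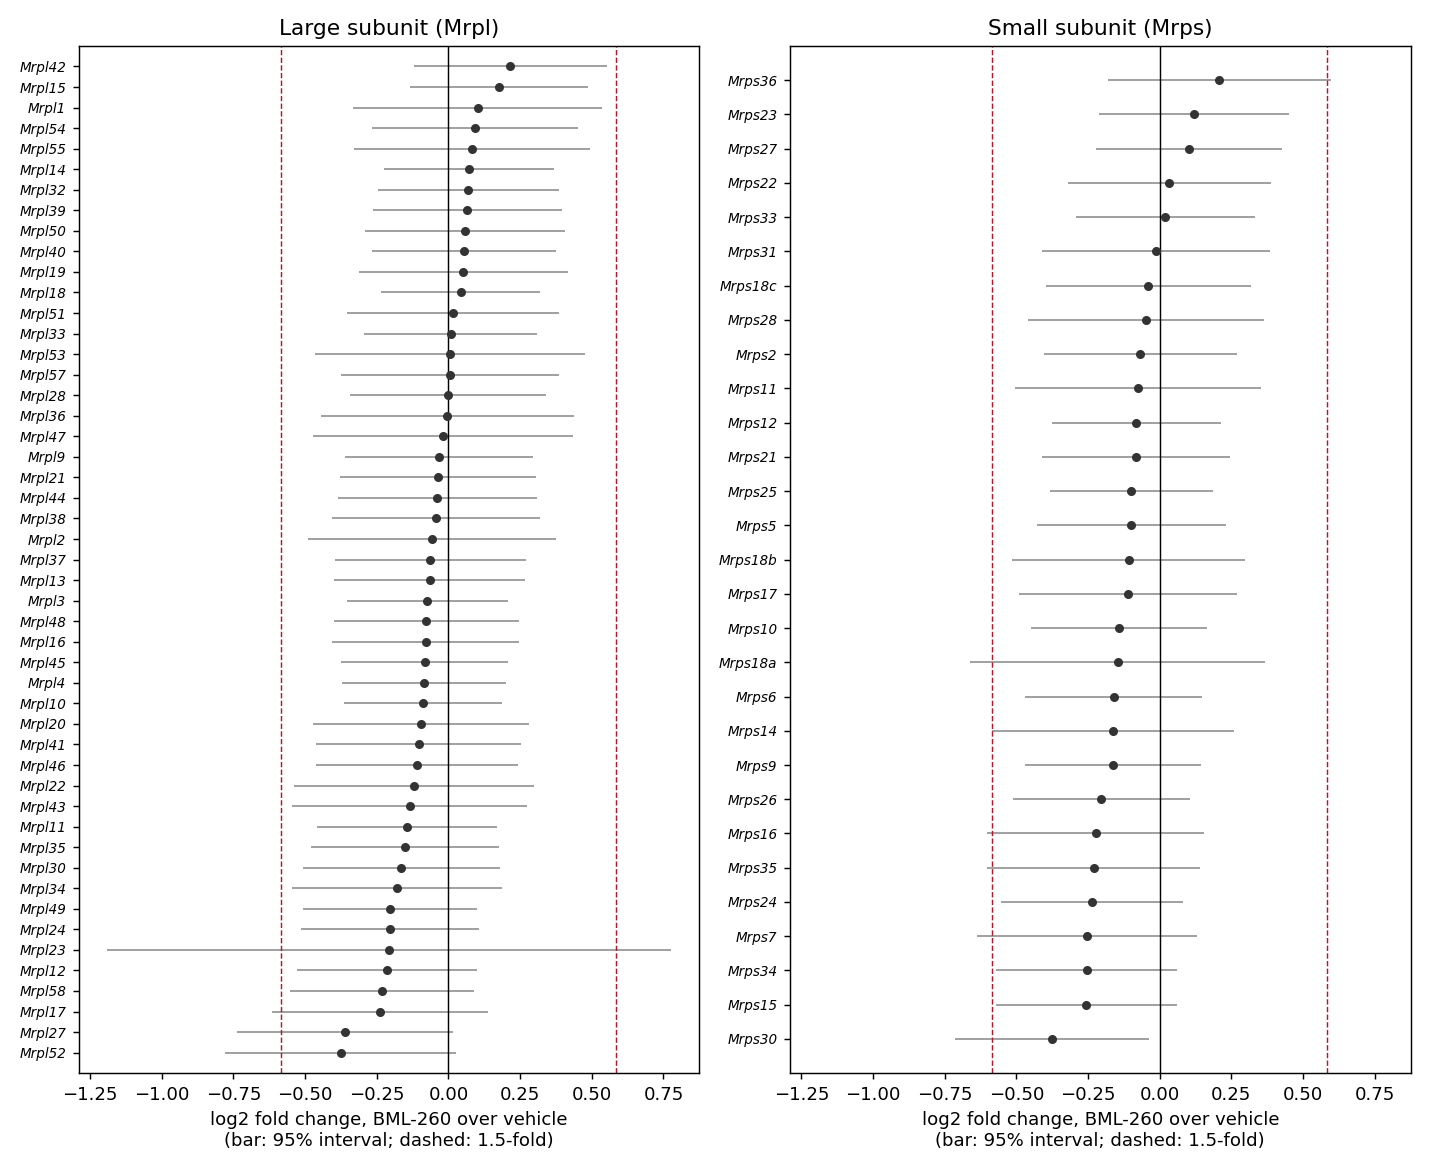
Log2 fold change of each member (horizontal axis, BML-260 over vehicle; point, with the 95% confidence interval from edgeR as bar), large subunit on the left and small subunit on the right, with dashed lines at 1.5-fold. Points lie between -0.38 and 0.22, and the interval of Mrps30 alone does not cross zero before adjustment.

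In the large subunit, the proteins at the base and body of the stalk that recruits translation factors had lower values in both BML-260 libraries. Mrpl12, the stalk protein, had 85.1 and 96.6 CPM in BML-260 against 106 and 105 CPM in vehicle. Its log2 fold change was -0.21 (SE 0.12, edgeR adjusted p = 0.572). Mrpl10, which anchors it, averaged 48.1 ± 0.861 CPM in BML-260 and 51.2 ± 0.869 in vehicle (SD, n = 2 each). Mrpl11, at the stalk base, averaged 31.1 ± 1.99 against 34.3 ± 1.63 CPM. The groups did not overlap in these 3 genes, as in 37.2% of members and 21.5% of tested genes in that direction, and no difference passed the test.

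Mrpl2 and Mrpl3 belong to the core around the peptidyl transferase centre, and Mrpl27 reaches towards it. Mrpl2 had 35.5 and 45.1 CPM in BML-260 against 38.3 and 45.5 in vehicle, with overlapping groups and the A library the lower in each. Mrpl3 varied little, with 41.5 and 42.8 CPM against 44.4 and 44.3. Mrpl27 had 32.7 and 34.1 CPM in BML-260 against 47.5 and 38.3 CPM in vehicle, or -0.36 on the log2 scale (SE 0.15, edgeR adjusted p = 0.461). Vehicle A stood above the other 3 libraries in this gene, whose exons overlap those of Eme1 on the opposite strand. Mrpl45, which ties the ribosome to the inner membrane where its products are inserted, had 30.4 and 29.3 CPM in BML-260 against 32.0 and 31.3 in vehicle. Mrpl58, a large subunit protein related to release factors that frees stalled peptides, had 24.7 and 26.6 CPM against 31.4 and 28.8 (log2 fold change -0.23, SE 0.13, edgeR adjusted p = 0.555).

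The lowest fold change of the large subunit was that of Mrpl52, with 19.9 and 22.5 CPM in BML-260 against 24.8 and 30.3 CPM in vehicle, or -0.38 on the log2 scale (SE 0.16, edgeR adjusted p = 0.472). It was -0.54 with vehicle A left out and -0.22 with vehicle B left out. Its 2 vehicle libraries differed from each other by more than its 2 BML-260 libraries did. The highest was that of Mrpl42, like Mrpl52 a protein that bacterial ribosomes lack, with 58.7 and 69.3 CPM in BML-260 against 53.1 and 57.2 CPM in vehicle (log2 fold change 0.22, SE 0.13, edgeR adjusted p = 0.592). That value was 0.09 without BML-260 B. Mrpl15, a core protein, had 31.9 and 33.5 CPM against 27.7 and 30.2, or 0.18 (SE 0.12), and 0.09 without vehicle A or 0.05 with limma on FPKM. Mrpl54, with 0.09 (SE 0.14), and Mrpl1, with 0.10 (SE 0.17), had overlapping groups. Other abundant members stood near zero or had overlapping groups: Mrpl33 at 31.6 and 33.6 CPM in BML-260 against 33.3 and 31.5 in vehicle, and Mrpl30 at 59.2 and 70.4 against 75.9 and 69.3.

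Among small subunit genes, Mrps30 had the smallest p of all members. It lies on chromosome 13 at 118378381 to 118387252 on the minus strand of GRCm38 (ENSMUSG00000021731). It had 28.6 and 33.6 CPM in BML-260 against 40.8 and 39.8 CPM in vehicle, from 593 and 737 expected counts against 860 and 920. The log2 fold change was -0.37 (SE 0.13, unadjusted p = 0.0355, edgeR adjusted p = 0.428). Both BML-260 libraries lay below both vehicle libraries. An antisense gene, B430218F22Rik, overlaps its exons, and without a stated strand setting their reads cannot be told apart. Despite its name, Mrps30 sits in the large subunit in structures of the mammalian mitochondrial ribosome.

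Other small subunit proteins hold the message and the decoding site. Mrps12, known for its part in decoding accuracy, had 27.5 and 28.7 CPM in BML-260 against 29.6 and 29.9 in vehicle. Mrps5, at the message entrance, had 47.4 and 47.6 against 55.1 and 46.7, with vehicle A again the highest. Mrps2 averaged 29.4 ± 1.63 CPM in BML-260 and 30.8 ± 2.85 in vehicle (SD, n = 2 each). Mrps24, which lines the message entrance with Mrps5, had 37.7 and 42.9 CPM against 46.4 and 48.5, or -0.24 (SE 0.13). Exons of Mrps24 overlap those of Urgcp on the same strand. Mrps7, in the head of the subunit, had 56.1 and 71.9 CPM in BML-260 against 76.7 and 75.7 in vehicle, or -0.25 on the log2 scale (SE 0.15, edgeR adjusted p = 0.584). BML-260 A stood apart below the other 3 libraries, and the value was -0.10 with BML-260 A left out and -0.44 with BML-260 B left out.

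Mrps34 and Mrps15 had the next smallest p among small subunit genes. Mrps34, which in mice is known to be needed to keep the small ribosomal RNA stable, had 58.4 and 66.8 CPM in BML-260 against 77.3 and 72.1 CPM in vehicle (log2 fold change -0.25, SE 0.12, edgeR adjusted p = 0.512). Mrps15, which binds the ribosomal RNA early in assembly of the bacterial subunit, had 54.9 and 61.3 CPM against 73.0 and 65.8 (-0.26, SE 0.12, edgeR adjusted p = 0.513). Groups did not overlap in either. Exons of Mrps34 overlap those of Nme3 on the same strand and of Mapk8ip3 on the other, so its counts are uncertain. Mrps16 and Mrps22 are genes whose loss causes mitochondrial disease in humans. Mrps16 had 25.0 and 20.5 CPM in BML-260 against 25.9 and 27.2 in vehicle, one of 6 members lowest in BML-260 B by this scale, and its log2 fold change of -0.22 (SE 0.15) became -0.39 with BML-260 A left out and -0.08 with BML-260 B left out. Mrps22 had 19.98 and 19.1 CPM against 20.2 and 17.9.

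The 3 paralogs Mrps18a, Mrps18b and Mrps18c are related to a single bacterial protein, and the first of them sits in the large subunit. Mrps18a had 33.1 and 46.8 CPM in BML-260 against 40.4 and 48.1 CPM in vehicle, and the A library was the lower in both groups. Mrps18b had 30.4 and 38.6 against 39.0 and 35.4, and Mrps18c 16.4 and 18.3 against 18.2 and 17.5. All 3 had overlapping groups, and log2 fold changes were -0.15 for Mrps18a (SE 0.20), -0.11 for Mrps18b (SE 0.16) and -0.04 for Mrps18c (SE 0.14). That of Mrps18a was 0.07 when BML-260 A was left out and -0.42 when BML-260 B was. Per length, they lay at 71.1, 47.4 and 56.4 FPKM over the 4 libraries.

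Few small subunit genes lay higher with BML-260. Mrps36, despite its name, is known as part of the alpha-ketoglutarate dehydrogenase complex of the citric acid cycle. On the TMM scale Mrps36 was the 1 small subunit gene higher in both BML-260 libraries. It had 19.4 and 22.5 CPM against 17.0 and 19.3 in vehicle (log2 fold change 0.21, SE 0.15, edgeR adjusted p = 0.646). The gap between 19.4 and 19.3 CPM is narrow, and with RLE factors 0 small subunit genes were higher in both. Mrps23 had 35.2 and 41.0 CPM against 35.6 and 34.5, and Mrps27, a protein of the mitochondrial ribosome that bacteria lack, 26.1 and 28.2 against 26.5 and 24.1. The groups of Mrps23 and Mrps27 overlapped.

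The groups did not overlap in 35 of 78 members (44.9%), against 44.3% of tested genes. By direction, 29 members (37.2%) were lower in both BML-260 libraries, against 21.5% of tested genes, and 6 (7.69%) were higher in both, against 22.9%. Of the lower ones 16 were large and 13 small subunit genes, and of the higher ones 5 were large and 1 small. On the TMM scale, BML-260 A was below BML-260 B in 69 members (88.5%), against 53.1% of tested genes. BML-260 A was the lowest of the 4 libraries in 56 members (71.8%), against 31.3% of tested genes, while BML-260 B was lowest in 6 and vehicle A and B in 6 and 10. BML-260 A lay below both vehicle libraries in 60 members (76.9%), against 37.9% of tested genes. BML-260 B lay below both in 31 (39.7%, against 35.1%) and above both in 27 (34.6%, against 36.6%). For BML-260 B these shares were thus near those of all tested genes on the TMM scale. Between the vehicle libraries, A was below B in 33 of the 78 members, against 49.5% of tested genes.

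This order of the BML-260 libraries depended on the scaling, whose TMM factors were 1.04 for BML-260 A and 0.926 for BML-260 B. As a share of all counts, the members took 0.261% and 0.262% in BML-260 A and B, against 0.296% and 0.285% in vehicle A and B. With RLE factors, BML-260 A was the lowest library in 58 members (74.4%, against 32% of tested genes). By library totals, BML-260 A was below BML-260 B in 38 members (48.7%, against 33.4% of tested genes). BML-260 A was then the lowest library in 32 members (41%, against 21.2% of tested genes) and BML-260 B in 36 (46.2%, against 39.6%). BML-260 B lay below both vehicle libraries in 56 members (71.8%, against 53.7%) and above both in 7 (8.97%, against 21.7%). Both BML-260 libraries were then below both vehicle libraries in 42 members (53.8%), against 27.5% of tested genes, and above both in 3 (3.85%), against 16.6%. By deposited FPKM, BML-260 A was the lowest in 51 members, with 30 members lower and 4 higher in both BML-260 libraries. The shares over all tested genes were not computed by FPKM, so these 3 counts have no background to be read against.

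**Figure D4:**
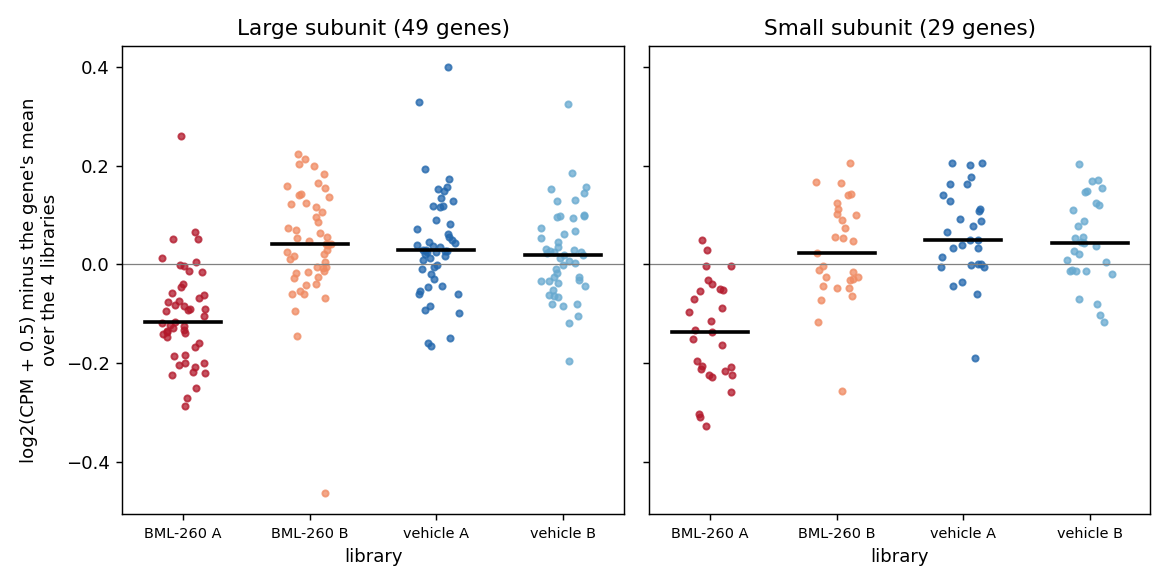
Level of each member in each library, as log2(CPM + 0.5) minus the gene's own mean over the 4 libraries (vertical axis, TMM-scaled CPM), with 1 point per gene and the median as a black line. On this scale the points of BML-260 A sit below those of the other 3 libraries. Its medians are -0.12 for the large and -0.14 for the small subunit. The medians of BML-260 B, vehicle A and vehicle B lie between 0.02 and 0.05. By library totals, not shown, BML-260 A was the lowest in 41% of members, against 21.2% of tested genes.

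Summed over the members, the large subunit had 1601 and 1802 CPM in BML-260 against 1790 and 1777 CPM in vehicle, and the small subunit 915 and 1033 against 1078 and 1060 CPM. In means this was 1702 ± 142 and 1784 ± 9.70 CPM for the large, and 974 ± 83.4 and 1069 ± 12.7 CPM for the small subunit, in BML-260 and vehicle libraries (SD, n = 2 each). For the small subunit both BML-260 sums were below both vehicle sums, and for the large subunit BML-260 B was above both. By library totals the large subunit sums were 1665 and 1669 CPM in BML-260 against 1850 and 1786 CPM in vehicle, and by FPKM 2464 and 2682 against 2861 and 2739, so both BML-260 libraries were then below both vehicle libraries. The log2 difference of the large subunit sum was -0.07 on the TMM scale, -0.12 by library totals and -0.12 by FPKM. Median log2 fold changes were -0.06 over 49 large and -0.11 over 29 small subunit genes, with 33 and 24 of them below zero. Without BML-260 A the medians were -0.01 and -0.03, against -0.02 over all tested genes, and 43 of the 78 members lay below zero. Without BML-260 B the medians were -0.13 and -0.19, against 0.01 over all tested genes, and 66 members lay below zero. Markers of mature adipocytes were lowest and lymphocyte markers highest in BML-260 A (values above), and their part in these values was not tested.

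The large subunit sum was 1.75 and 1.75 times the small subunit sum in BML-260 A and B, against 1.66 and 1.68 times in vehicle A and B. This ratio does not depend on how libraries are scaled, and it was looked at after the values were seen. By summed FPKM it was 1.69 and 1.70 in BML-260 against 1.64 and 1.63 in vehicle. With geometric means of CPM it was 0.991 and 0.9749 against 0.951 and 0.9495. Groups did not overlap by these 3 measures. They did overlap by the ratio of medians, with 1.08 and 1.02 in BML-260 against 1.03 and 0.912 in vehicle. The difference between the subunits amounts to 0.07 on the log2 scale by summed CPM. With Mrps30 and Mrps18a counted as large and Mrps36 left out, the ratio of summed CPM was 1.99 and 2.02 against 1.91 and 1.96.

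The proteins of the cytosolic ribosome and of respiratory complex I, which takes up subunits made by the mitochondrial ribosome, were set beside the members. On the TMM scale, 27 of 37 complex I subunit genes were lowest in BML-260 A and 32 highest in BML-260 B. Of all 15643 tested genes, 31.3% were lowest in BML-260 A and 3896 genes were highest in BML-260 B. The complex I sums were 3439 and 4264 CPM in BML-260 against 3681 and 3747 CPM in vehicle, with a median log2 fold change of 0.03. The members, also low in BML-260 A on this scale, were highest in BML-260 B in 26 of 78. Of 87 tested cytosolic ribosomal protein genes, 72 were lowest in BML-260 B and 62 highest in vehicle A, and their median log2 fold change was -0.18. Among all 15643 tested genes, 20.3% were lowest in BML-260 B and 4134 genes were highest in vehicle A. No gene of either family passed the edgeR test. At an unadjusted p under 0.05 there were 0 complex I genes and 6 cytosolic ribosomal protein genes, all 6 lower, against 3.61% of tested genes in that direction. DESeq2 called 0 complex I genes and 1 cytosolic gene, which was lower, against 2.76% of genes in either direction.

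Messages of the mitochondrial genome, which the mitochondrial ribosome translates, summed to 68768 and 80804 CPM in BML-260 against 67510 and 67363 CPM in vehicle (13 genes, median log2 fold change 0.14). DESeq2 called 2 of them, both higher, against 2.76% of genes in either direction, and edgeR called 0, with 2 at an unadjusted p under 0.05. The ribosomal RNAs that form its core were higher in both BML-260 libraries. The small ribosomal RNA mt-Rnr1 had 368 and 460 CPM against 315 and 262 (log2 fold change 0.52, SE 0.20, edgeR adjusted p = 0.440), and the large one, mt-Rnr2, 427 and 523 against 371 and 289 (0.52, SE 0.21, edgeR adjusted p = 0.456). Reads of these RNAs can also match copies in the nuclear genome, so single values are uncertain. Muscle is rich in mitochondria and its markers were higher in both BML-260 libraries, and their part in these values was not tested.

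**Figure D5:**
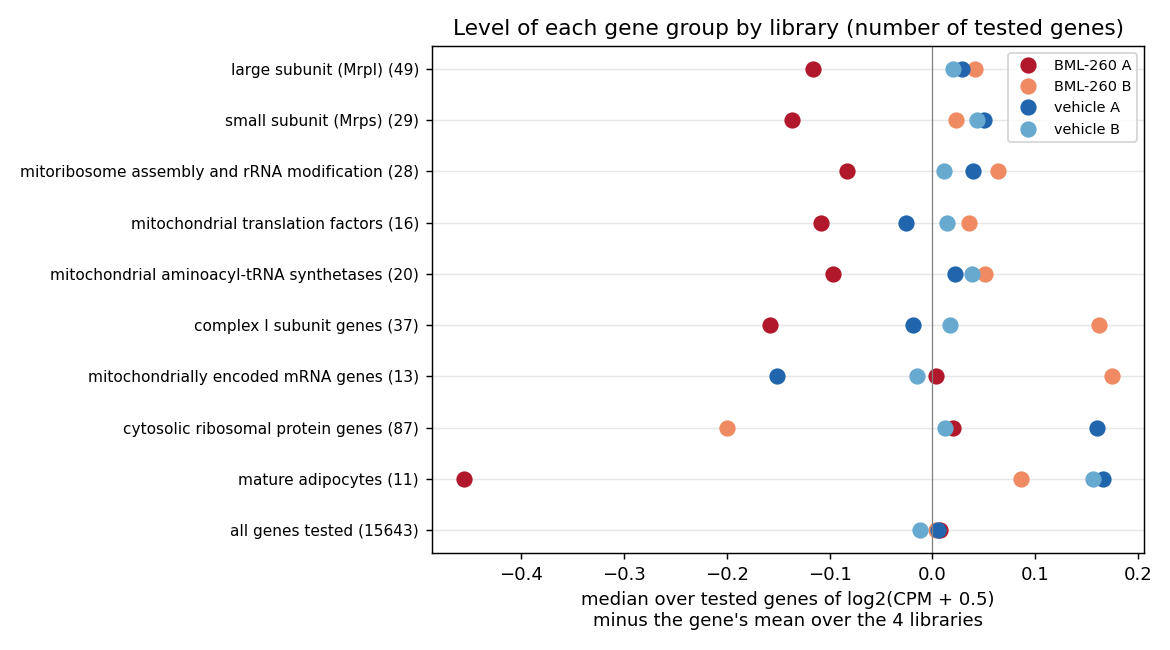
Median over the tested genes of each group (rows, number of genes in brackets) of log2(CPM + 0.5) minus the gene's mean over the 4 libraries (horizontal axis), 1 point per library, from TMM-scaled CPM. BML-260 A is the lowest point for both subunits, the assembly, translation factor and synthetase lists, complex I and mature adipocytes, while BML-260 B is the lowest for cytosolic ribosomal proteins.

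The rest of the mitochondrial translation pathway also had 0 genes past the edgeR test or limma-voom. Further ribosomal proteins carry other names (Dap3, Ptcd3, Aurkaip1, Chchd1 and Gadd45gip1), with a median log2 fold change of -0.02. Among them Dap3, a small subunit protein that binds guanosine triphosphate, had 44.2 and 50.4 CPM in BML-260 against 50.8 and 49.96 in vehicle, and Aurkaip1 58.8 and 68.7 against 74.0 and 67.9. Of 28 genes for assembly of the ribosome and modification of its RNA, 14 lay above and 14 below zero. An unadjusted p under 0.05 was reached by 3 of them, all lower, and by 3.61% of tested genes in that direction. These were C1qbp, Mterf4 and Mpv17l2. C1qbp, a matrix protein needed for mitochondrial translation in mice, had 38.8 and 46.0 CPM in BML-260 against 54.1 and 55.2 CPM in vehicle (log2 fold change -0.37, SE 0.13, edgeR adjusted p = 0.430). Mterf4, which brings the RNA methyltransferase Nsun4 to the large subunit, had 16.4 and 20.6 against 23.1 and 29.9 CPM (-0.52, SE 0.20, edgeR adjusted p = 0.441), and Mpv17l2 had 25.2 and 29.7 against 35.9 and 34.3 (-0.35, SE 0.14).

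Of 16 translation factors, 9 lay above and 7 below zero, DESeq2 called 0, and 0 had an unadjusted p under 0.05. Gfm1, the elongation factor that moves the ribosome along the message, had 70.4 and 84.3 CPM in BML-260 against 60.4 and 63.0 CPM in vehicle (log2 fold change 0.33, SE 0.13, edgeR adjusted p = 0.461). Slirp, which stabilises mitochondrial messages together with Lrpprc, had 16.7 and 19.0 against 21.4 and 22.7 (-0.31, SE 0.14). Of 20 aminoacyl-tRNA synthetase genes, 8 lay above and 12 below zero. Lars2, the synthetase that loads leucine, had 63.7 and 79.5 CPM in BML-260 against 155 and 101 CPM in vehicle. Its log2 fold change of -0.84 (SE 0.24) had adjusted p-values of 0.377 with edgeR and 0.0438 with DESeq2, which called 2.76% of genes with an adjusted p. The vehicle libraries differed from each other in Lars2 by more than the BML-260 libraries did. Mars2, which loads methionine, had 11.7 and 10.7 CPM against 8.26 and 8.43 (0.43, SE 0.18).

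Of 15 genes for transcription and upkeep of the mitochondrial genome and their nuclear regulators, 7 lay above and 8 below zero, and DESeq2 called 0. At an unadjusted p under 0.05 there were 2, both higher, against 7.45% of tested genes in that direction. They were the coactivator genes Ppargc1b, with 12.6 and 12.3 CPM in BML-260 against 8.45 and 7.43 in vehicle (log2 fold change 0.65, SE 0.18, edgeR adjusted p = 0.367), and Ppargc1a, with a log2 fold change of 0.64 (SE 0.22). Nrf1, whose motif is described above, had 18.8 and 17.1 CPM against 15.3 and 14.7, a log2 fold change of 0.26 (SE 0.14). Gabpa had 44.1 and 38.9 CPM in BML-260 against 47.7 and 41.0 in vehicle, and Tfam, the packaging factor of mitochondrial DNA, 27.6 and 27.2 against 26.3 and 26.97. Gabpa had overlapping groups, and Tfam differed by 0.04 on the log2 scale (SE 0.12).

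The members are spread over 17 chromosomes, most often chromosome 11, with 11 of them. In the annotation, exons of 33 members overlap an exon of another gene, 28 of them on the opposite strand and 8 on the same strand. Their counts are uncertain without a stated strand setting, and such a setting would not separate genes on the same strand. One such pair are members themselves: Mrpl46 and Mrps11, on opposite strands of chromosome 7. Mrpl46 had 16.1 and 17.6 CPM in BML-260 against 18.6 and 17.8 in vehicle, and Mrps11 14.6 and 18.5 against 17.5 and 17.5. In 22 members an expected count was off a whole number by more than 0.02 in at least 1 library, as happens where a read is shared between genes.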

How the data were processed

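RNA from 4 libraries was sequenced, 2 from BML-260 and 2 from vehicle mice, grouped by the titles in the labels. A single deposited table gives each library's expected counts per gene, which the authors made without normalizing, and FPKM, which the authors scaled by depth and length. It also holds group means of both, also on a log2 scale, and the authors' log2 fold change, p-value and adjusted p-value. Tools named in the submitters' processing notes, without role, are RSEM 1.2.31, HISAT2 2.1.0 and DESeq2 1.10.1, with build GRCm38.p5. Annotation, filters and strand setting were not given there.

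Expected counts were rounded to whole numbers and filtered with filterByExpr (minimum count 10), which left 15643 genes. Groups were compared two-sided in R 4.3.3 by the quasi-likelihood method of edgeR 4.0.16 (TMM factors, no covariate), and p-values were adjusted over all genes by Benjamini and Hochberg, with a threshold of 0.05. There were 2 residual and 3.28 prior degrees of freedom. CPM are TMM-scaled. Standard errors are the log2 fold change over the square root of F, and intervals use the t distribution. Alternatives were DESeq2 1.42.0, limma-voom (limma 3.58.1), limma on log2(FPKM + 0.1), other scaling, no filter, leaving out each library and a term for the library letter. The tests were tried on simulated counts. There edgeR called 0% of genes changed 1.5-fold, 46% of those changed 2-fold and 98% of those changed 8-fold. DESeq2 called 8%, 68% and 98% of them. False calls, counted over the genes simulated without change, numbered 38 with edgeR and 74 with DESeq2. Few of the 15643 genes were simulated with a change. In both tests, false calls were thus a larger share of all calls than the threshold of 0.05 allows. Gene symbols came from the table, coordinates and overlaps from GENCODE vM21 (GRCm38, of which GRCm38.p5 is a patch release), promoters from RefSeq (GRCm38.p6).

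Members, gene lists, motifs and tests were chosen with earlier results of these data known. The genes named were every member past the threshold (0) or below the filter (0), the 6 members per direction with the smallest p, the 4 highest and 2 lowest per subunit by FPKM, the 3 with the widest range, a list of 18 by role, 2 per pathway list and 7 fixed genes. Mrpl46, Mrps11, Mrps26, Mpv17l2 and the pseudogene Mrpl23-ps1 were added with their values known. Of the pathway names, Ict1 and Mrp63 are older names of Mrpl58 and Mrpl57, which are members. Other marker lists are in the closing section.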

Additional observations from a re-analysis of the deposited data

How the results depend on the processing

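No member was called under any of the 11 alternatives (DESeq2, limma-voom, limma on FPKM, RLE factors, library totals, no filter, the replicate block and leaving out each library). Of 374 values of the named members under these alternatives, 362 moved by less than their standard error and 12 by more. The median log2 fold change ranged from -0.1328 to -0.0066 for the large and from -0.187 to -0.0283 for the small subunit when 1 library was left out. By library totals the medians were -0.1213 and -0.1717, while the median of all genes moved to -0.04; the order of the BML-260 libraries under that scaling, chosen after seeing the data, is given above. The number of all genes called was 1 in the edgeR test, 407 with DESeq2, 651 with no filter on low counts, and 0 to 340 when 1 library was left out, with 340 without vehicle B. With the library letter as a replicate block it was 0, and member medians were -0.0625 and -0.1165; deviations of same-letter libraries had a correlation of -0.0401 over 15643 genes, and nothing in the labels pairs them. The difference in the large to small ratio was 0.0672 by summed CPM (log2). It was 0.0555 by summed FPKM, 0.0483 by geometric mean and 0.1073 by medians. With Mrps30 and Mrps18a as large and without Mrps36, it was 0.056 by summed CPM, 0.0582 by summed FPKM and 0.0401 by geometric mean. Ribosomal proteins under other names were not counted in these ratios. All these measures were chosen after seeing the data. In the 250 bases before the start alone, the ETS motif was in 24% and the YY1 motif in 5.33% of member promoters, against 12.2% and 1.85% of promoters of tested genes; leaving out the last 50 bases shortens the window. With 2 libraries per group, the precision is that of the intervals given above.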

Other observations

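Markers of other cell types, summed in CPM over each list, were as follows. B cell genes had 450 and 168 in the BML-260 libraries A and B, against 174 and 144 in the vehicle libraries. Macrophage genes had 2673 and 1421 CPM in BML-260 against 1912 and 2207 in vehicle. Endothelial genes had 503 and 675 against 807 and 742, and fibroblast and progenitor genes 9438 and 7830 against 6694 and 8598. Brown and beige adipocyte genes had 588 and 656 CPM in BML-260 against 114 and 148 in vehicle. Epithelial genes were near 0 in every library, at 1.25 and 2.55 CPM against 2.42 and 2.07.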
